A study of Mus musculus with 672 samples.

Results

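The 39 G2 and M phase genes examined here encode the proteins that carry a cell through late interphase and mitosis, and they were taken as a fixed list of symbols from the single-cell count table. All 39 were matched to an identifier among the 46078 genes of the table, and all 39 passed the filter on low counts. Transcripts were counted in 672 single bone marrow progenitors from 4 mice aged 7 weeks, sorted out of femur and tibia marrow, on a C57BL6/129Ola background. Both null mice, 18217 and 18219, carried Mbd3 Del/Del, and both control mice, 18218 and 18220, carried Mbd3 Flox/Flox. Mbd3 encodes a subunit of NuRD, a complex that remodels nucleosomes and removes acetyl groups from histones. The sources used here give neither the driver of the deletion nor the part of Mbd3 removed. From each mouse came 3 populations of the same lineage-negative, Sca-1+, c-Kit+, Flt3-high, B220- compartment. Lymphoid-primed multipotent progenitors (LMPPs) lacked surface IL-7 receptor, all-lymphoid progenitors (ALPs) had IL-7 receptor and lacked Ly6D, and B cell-biased lymphoid progenitors (BLPs) had both proteins. The comparisons asked whether the genes differed between genotypes in each population, whether they changed along the steps from LMPP to ALP and from ALP to BLP, and whether a difference lay in how many cells held the transcripts or in how much a few cells held.

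Entry into mitosis is driven by Cdk1 bound to cyclins A and B, which opposing kinases hold back until the phosphatase Cdc25c activates it. Polo-like and Aurora kinases then build the spindle, the kinetochore joins chromosomes to it, and the anaphase-promoting complex destroys cyclin B and frees the sister chromatids. Transcripts of these genes are low in G1 and accumulate through S, G2 and M, so in a mixed sample their level follows both the number of dividing cells and the stage those cells have reached. Many of their promoters carry a cell cycle genes homology region (CHR), bound by MuvB complexes that repress the genes in resting cells and activate them with B-Myb and Foxm1 in G2, and CCAAT boxes bound by NF-Y.

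The promoters of 6 members are shown because the genes of the list moved together, and these 6 stand for the cyclins, their kinase, the anaphase-promoting complex and the proliferation marker. Each is the RefSeq sequence on build GRCm38.p6 from 130 bases before the transcription start to the first 15 bases after it, read 5′ to 3′ on the gene's strand. Capitals mark the CHR core (TTTGAA or, on the other strand, TTCAAA) and the CCAAT box (CCAAT or ATTGG).
Ccnb1, chr13:100786472-100786616, minus strand: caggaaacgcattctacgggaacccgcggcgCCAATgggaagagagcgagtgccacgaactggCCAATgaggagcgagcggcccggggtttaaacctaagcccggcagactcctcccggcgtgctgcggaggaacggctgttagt
Ccnb2, chr9:70421540-70421684, minus strand: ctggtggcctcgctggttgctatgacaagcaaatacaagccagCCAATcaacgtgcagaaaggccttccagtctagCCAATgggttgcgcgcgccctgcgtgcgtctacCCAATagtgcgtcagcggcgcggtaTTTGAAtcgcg
Cdk1, chr10:69352898-69353042, minus strand: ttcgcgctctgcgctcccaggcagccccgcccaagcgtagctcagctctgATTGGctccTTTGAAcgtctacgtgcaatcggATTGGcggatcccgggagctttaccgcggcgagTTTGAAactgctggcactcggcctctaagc
Cdc20, chr4:118437329-118437473, minus strand: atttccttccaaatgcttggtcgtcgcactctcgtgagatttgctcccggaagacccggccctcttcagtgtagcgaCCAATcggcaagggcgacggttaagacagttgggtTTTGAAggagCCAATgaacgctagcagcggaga
Ube2c, chr2:164769799-164769943, plus strand: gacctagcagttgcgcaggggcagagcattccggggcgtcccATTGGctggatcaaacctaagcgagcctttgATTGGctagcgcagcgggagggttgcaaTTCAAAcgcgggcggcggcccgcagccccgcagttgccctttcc
Mki67, chr7:135716365-135716509, minus strand: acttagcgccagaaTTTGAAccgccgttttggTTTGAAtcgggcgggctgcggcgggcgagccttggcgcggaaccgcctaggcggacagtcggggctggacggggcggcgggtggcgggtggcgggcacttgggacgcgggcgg

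Ccnb2 has 3 CCAAT boxes that begin 87, 54 and 21 bases before the start, and a CHR core that begins at base 5 of the transcript. Another CHR core of Ccnb2, 167 bases before the start, lies outside the stretch shown. Cdk1 has CCAAT boxes 80 and 48 bases before the start and CHR cores 71 and 15 bases before it. A further CCAAT box of Cdk1, 208 bases before the start, also lies outside the stretch shown. Ccnb1 has CCAAT boxes 99 and 67 bases before the start and no TTTGAA or TTCAAA in its 300-base window. Over the windows from 250 bases before to 50 after the start, which the RefSeq table gives for 33 of the 39 members, a CHR core was found in 25 (75.8%), against 17.9% of all 32851 promoters in the table. A CCAAT box was likewise found in 25 of the 33 (75.8%), against 37.4% of all promoters, and both motifs in 21 (63.6%), against 7.0%. At least 2 CCAAT boxes were found in 18 (54.5%), against 11.7%. Both strands were searched, the motifs can share at most 1 base where they abut, and CCAAT matches on opposite strands can overlap, as 2 of the 6 in Ube2c do. Plk1, also searched, has a CCAAT box 14 bases before the start and a CHR core at base 31 of the transcript. A match describes letters in a window and not a bound site. Aurkb, Ccna2, Cdc25c, Dlgap5, Kif20a and Tpx2 were not looked up further.

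After limits on depth and quality, 561 cells remained, 284 null and 277 control, and their reads were summed into 12 libraries of 53741264 to 137497554 gene counts, 1 per mouse and population. The median kept cell held 1004760 to 1285444 nuclear gene counts in the null libraries and 1586214.5 to 2340592 in the control libraries. Because the control cells were read more deeply, every share of cells below was taken after each cell had been thinned to 50000 counts. Of the 111 cells left out, 86 were ALPs of mice 18219 and 18220, whose ALP libraries hold 42 and 40 cells, against 79 and 74 for mice 18217 and 18218. Mbd3 itself stood at 0.189 to 24.7 CPM (counts scaled to library size and TMM factors) in the null libraries and 48.1 to 191 CPM in the control libraries, and 98.26% of the Mbd3 reads among the LMPPs of mouse 18219, where the null value was highest, came from 1 cell. Il7r stood at 3.72 to 26.7 CPM in LMPPs and 546 to 909 CPM in the other populations, and Ly6d at 1501 to 3749 CPM in BLPs and at most 133 CPM elsewhere, as the gates set. In the columns of the table, mice 18217 and 18218 stand together, as do 18219 and 18220, and the median log2 CPM of the members was higher in the mouse of the first pair in each of the 6 groups. The labels do not say whether these pairs are batches.

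In LMPPs, every one of the 39 members had a positive log2 fold change of null over control, with a median of 1.39 and a range of 0.05 to 2.87. Of all 19903 genes tested, 48.1% were higher in null LMPPs, and the median over all of them was −0.02. By edgeR's quasi-likelihood test no member passed an adjusted p of 0.05, nor did any other gene (0% called), and 10 members had an unadjusted p under 0.05, all higher, where 3.14% of all genes were higher and 3.62% lower at that level. DESeq2 called 4 members, against 2.61% of all genes, and limma-voom called none. Both null libraries stood above both control libraries in CPM for 21 of the 39 members and below them for none, where 16.2% of all genes stood above and 17.8% below. In a summed library, more cells that hold a transcript and more transcript in each cell cannot be told apart, and the single cells that separate them are described further on.

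**Figure D1:**
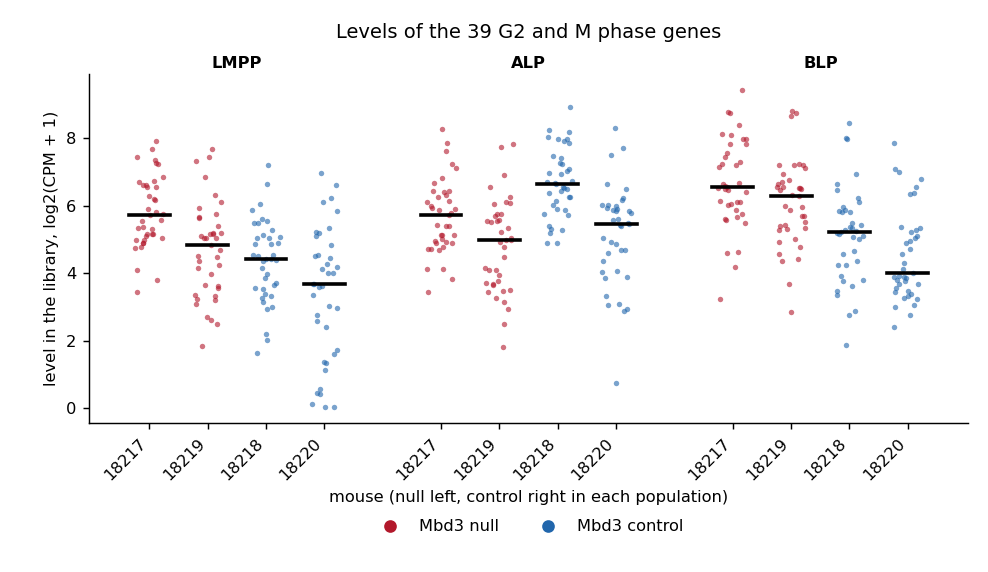
Levels of the 39 members in each summed library, as log2(CPM + 1), with 1 point per gene and a bar at the median, null mice to the left of control mice in each population. In LMPPs and BLPs the null medians lie above both control medians. In ALPs the medians of mouse 18218 (control) and mouse 18217 (null) lie above those of the other 2 mice.

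Among the LMPP cyclins and their partners, all 6 were higher, with a median log2 fold change of 1.82. Ccnb1, a cyclin B that activates Cdk1 for mitotic entry, stood at 45.8 and 21.5 CPM in null LMPPs (mice 18217 and 18219), against 12.2 and 1.53 CPM in control LMPPs (mice 18218 and 18220). The genotypes did not overlap for Ccnb1, and its log2 fold change was 2.29 ± 1.27 (± approximate SE). Cdk1, the kinase itself, stood at 205 and 35.6 CPM in null LMPPs, against 65.8 and 56.9 CPM in control LMPPs. Cdk1 was therefore high in mouse 18217 alone, with the other null mouse below both controls, and its log2 fold change was 0.97 ± 0.75.

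The spindle and kinesin genes held the smallest p-values in LMPPs. Tpx2 (chr2:152847964-152895321), which activates Aurora A and nucleates spindle microtubules, stood at 71.4 and 68.6 CPM in null LMPPs, against 22.5 and 11.9 CPM in control LMPPs. In CPM both null libraries lay far above both controls, and the log2 fold change was 2.03 ± 0.48 (edgeR adjusted p = 0.628, DESeq2 adjusted p = 0.00253). A Tpx2 read was found in 28.9% and 10.6% of null LMPPs, against 10.6% and 8.51% of control LMPPs, with null mouse 18219 level with control mouse 18218. For Tpx2 the highest cell held 27.3% and 49.6% of the reads in null LMPPs, and 49.4% and 44.0% in control LMPPs. Kif2c (chr4:117159639-117182639), a kinesin that depolymerises microtubules at the kinetochore, stood at 13.1 and 10.8 CPM in null LMPPs, against 3.07 and 2.34 CPM in control LMPPs. Its genotypes were likewise apart in CPM, with a log2 fold change of 2.14 ± 0.60 (edgeR adjusted p = 0.660, DESeq2 adjusted p = 0.00517). However, 1 cell held 65.1% and 98.1% of the Kif2c reads in null LMPPs, and 62.3% and 98.8% in control LMPPs. A Kif2c read was found in 4.44% and 4.26% of null LMPPs, against 8.51% and 2.13% of control LMPPs, with overlap. The 6 kinesins of the list had a median log2 fold change of 1.61, and the 6 spindle-associated genes 1.44. Ect2 (chr3:27097222-27153878), the exchange factor that switches on RhoA at the cleavage furrow, stood at 28.9 and 31.7 CPM in null LMPPs, against 9.37 and 16.5 CPM in control LMPPs. Its log2 fold change of 1.23 ± 0.38 had an edgeR adjusted p of 0.698 and a DESeq2 adjusted p of 0.0454. Anln, the actin-binding scaffold of the same furrow, had a log2 fold change of 1.32 ± 0.71.

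The chromosomal passenger complex corrects wrong attachments between chromosomes and spindle. Its subunit Birc5, also called survivin (chr11:117849251-117855743), stood at 114 and 41.5 CPM in null LMPPs, against 20.5 and 18.2 CPM in control LMPPs. Both null libraries were above both controls, although the null mice differed widely. The log2 fold change was 2.01 ± 0.63 (edgeR adjusted p = 0.699, DESeq2 adjusted p = 0.0445). The highest cell held 24.6% and 76.2% of the Birc5 reads in null LMPPs, and 48.4% and 62.3% in control LMPPs. The level in null mouse 18219 thus rested mostly on 1 cell. Aurkb, the kinase of the complex, stood at 92.8 and 2.60 CPM in null LMPPs, against 32.1 and 15.0 CPM in control LMPPs, so that the null mice lay on either side of the controls. The third subunit listed, Cdca8, had a log2 fold change of 1.71 ± 0.66.

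The 6 mitotic kinases and spindle checkpoint genes (Aurka, Plk1, Nek2, Ttk, Bub1 and Bub1b) had a median log2 fold change of 1.49 in LMPPs, and the ubiquitin ligase partners Cdc20 and Ube2c had 1.71 ± 0.74 and 1.59 ± 1.44. The centromere and kinetochore genes had the lowest median of the groups with 6 members, 1.12. Within them Hjurp, the chaperone that loads the centromeric histone, had a log2 fold change of 0.05 ± 0.29, whereas Cenpa, the histone it loads, had 1.29 ± 0.49. Mki67 (chr7:135689784-135716361), whose protein coats mitotic chromosomes, stood at 152 and 161 CPM in null LMPPs, against 44.2 and 39.7 CPM in control LMPPs. The 2 null mice were close to each other and far above both controls in CPM, and the log2 fold change was 1.90 ± 0.68. However, the highest cell held 31.1% and 55.0% of the Mki67 reads in null LMPPs, and 52.3% and 23.6% in control LMPPs. Top2a (chr11:98992943-99024189), which untangles sister chromatids, stood at 242 and 49.8 CPM in null LMPPs, against 99.3 and 97.6 CPM in control LMPPs, with the second null mouse below both controls.

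In ALPs the members lay the other way, with 37 of 39 lower in null mice and a median log2 fold change of −0.75. With cells thinned to equal counts the median was −0.42 and 8 members were higher. The 2 members not lower were Dlgap5, a microtubule-associated protein of the spindle, at 0.18 and Hjurp at 0.00. Of all genes tested, 49.7% were higher in null ALPs, and their median was 0. No member passed the edgeR test, where 0.00502% of genes did, and 1 member had an unadjusted p under 0.05, and it was lower, where 1.99% of all genes were lower and 2.51% higher at that level. DESeq2 and limma-voom each called 0 members in ALPs, against 1.6% of genes called by DESeq2. Both null libraries stood below both control libraries for 8 members and above them for none, where 17% of all genes stood below and 17.1% above.

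Control mouse 18218 held the highest level of most members in ALPs. The members' median log2 CPM was 5.70 and 4.94 in null mice 18217 and 18219, against 6.64 and 5.43 in control mice 18218 and 18220. The genotypes overlapped, and in each pair of neighbouring columns the null mouse was lower. Ect2 stood at 28.8 and 32.2 CPM in null ALPs, against 88.9 and 47.0 CPM in control ALPs. The genotypes did not overlap, and Ect2 was the member with the unadjusted p under 0.05 (log2 fold change −1.16 ± 0.38, edgeR adjusted p = 1). Tpx2 stood at 59.3 and 30.6 CPM in null ALPs, against 124 and 59.4 CPM in control ALPs, with the higher null library level with the lower control (−1.03 ± 0.46). Cenpa (chr5:30666777-30674830) stood at 101 and 75.2 CPM in null ALPs, against 239 and 89.2 CPM in control ALPs, so that mouse 18218 alone stood apart (−0.90 ± 0.48). Cenpe (chr3:135212537-135273611), the kinesin that moves chromosomes to the spindle equator, stood at 29.7 and 16.1 CPM in null ALPs, against 64.1 and 32.1 CPM in control ALPs (−1.07 ± 0.66).

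In ALPs the genotypes overlapped for Mki67, Ccnb1 and Cdk1, and for Top2a both null libraries lay below both controls. Mki67 stood at 194 and 44.9 CPM in null ALPs, against 253 and 178 CPM in control ALPs (−0.85 ± 0.66), and Top2a at 307 and 211 CPM in null ALPs, against 482 and 313 CPM in control ALPs (−0.62 ± 0.61). Ccnb1 stood at 25.1 and 7.83 CPM in null ALPs, against 85.7 and 7.58 CPM in control ALPs, and Cdk1 at 149.96 and 119.9 CPM in null ALPs, against 292 and 98.5 CPM in control ALPs. Without mouse 18218 the log2 fold changes of Ccnb1 and Cdk1 were positive, at 1.12 and 0.45, and the members' median ranged from −1.35 to 0.10 when each mouse was left out in turn. Among the groups of members, the anaphase-promoting complex partners had the lowest median in ALPs, −1.45, and the kinesins the highest, −0.57.

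In BLPs, 38 of the 39 members were higher in null mice, with a median log2 fold change of 1.52. Cdc25c, the activating phosphatase and the least abundant member per length, was the exception at −0.52 ± 1.89. The highest cell held 30.1% and 88.1% of the Cdc25c reads in null BLPs, and 97.2% and 91.4% in control BLPs. In 1 thinning draw a Cdc25c read was found in 16.7% and 8.57% of null BLPs, against 2.94% and 5.71% of control BLPs. Averaged over all possible thinning draws, the shares were 13.9% and 5.62%, against 4.98% and 5.54%, with null mouse 18219 close to the controls. Of all genes tested, 48.5% were higher in null BLPs. No member passed the edgeR test, where 0.01% of genes did, and 12 had an unadjusted p under 0.05, all higher, where 4.33% of all genes were higher and 4.5% lower at that level. DESeq2 called 6 members, all higher, against 4.65% of all genes, and limma-voom called 0. Both null libraries stood above both control libraries for 33 members and below them for 1, where 16.3% of all genes stood above and 17.1% below.

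**Figure D2:**
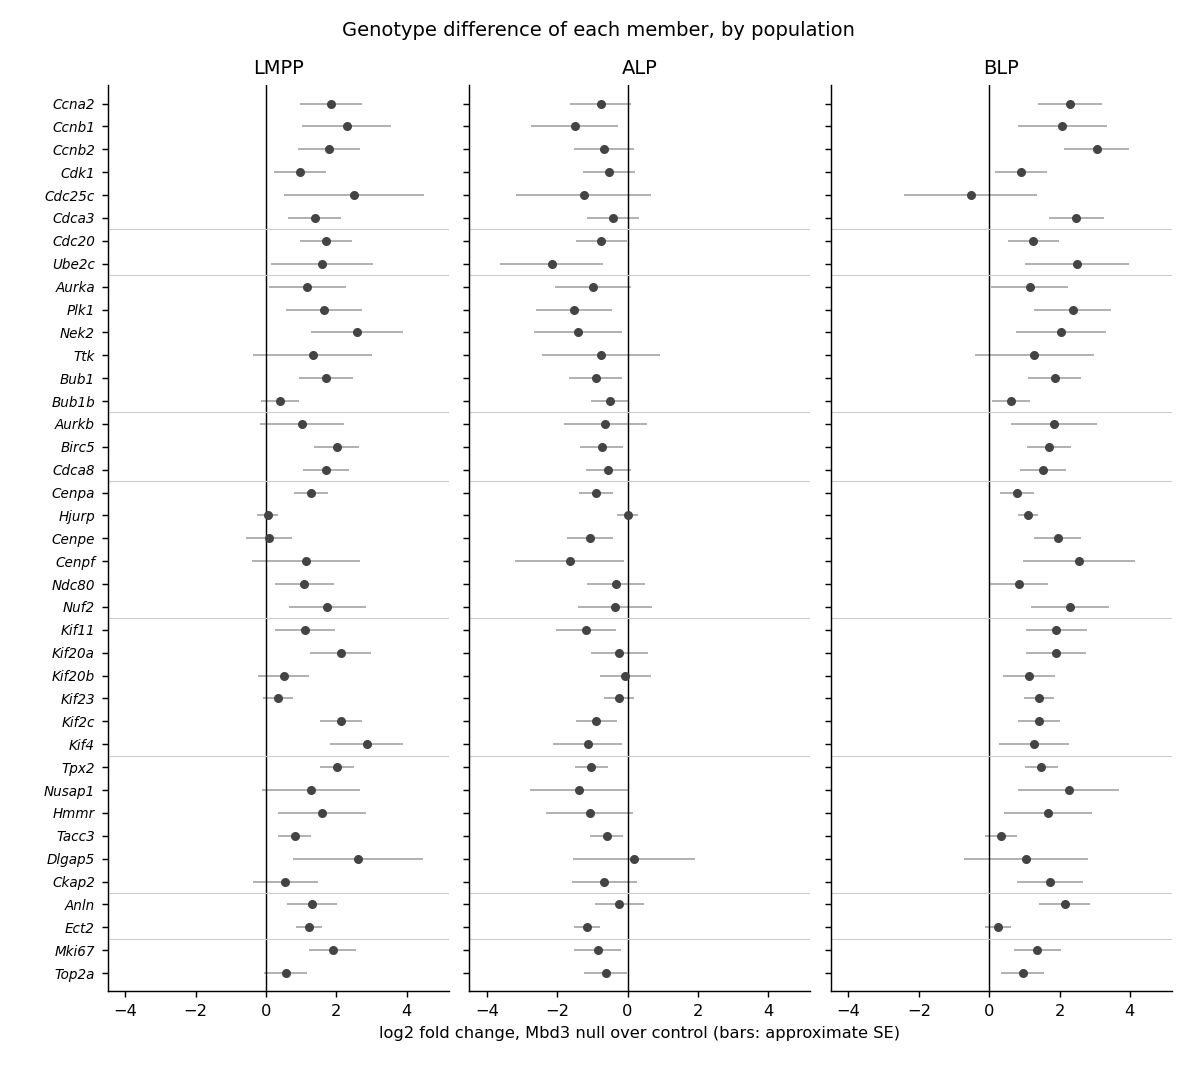
Log2 fold change of null over control for each of the 39 members in LMPPs, ALPs and BLPs, with bars for the approximate SE and members grouped by role. In LMPPs and BLPs the points lie to the right of 0 except Cdc25c in BLPs, and in ALPs to the left except Dlgap5 and Hjurp, with wide bars throughout.

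Ccnb2 (chr9:70407692-70421547), a cyclin B at the Golgi and spindle and the most abundant member per kilobase of exon (75.3 CPM per kb, mean of 12 libraries), had the largest fold change in BLPs. It stood at 275 and 147 CPM in null BLPs, against 40.6 and 9.95 CPM in control BLPs. Both null libraries were well above both controls, and the log2 fold change was 3.06 ± 0.92 (edgeR adjusted p = 0.506, DESeq2 adjusted p = 0.00741). Cdca3 (chr6:124829547-124833701), an adaptor for destruction of the Cdk1 inhibitor Wee1, stood at 226 and 107 CPM in null BLPs, against 43.5 and 16.3 CPM in control BLPs (2.48 ± 0.78, edgeR adjusted p = 0.523, DESeq2 adjusted p = 0.0209). The lower null library again lay above the higher control. Ccnb1 stood at 84.2 and 29.5 CPM in null BLPs, against 12.8 and 14.1 CPM in control BLPs (2.08 ± 1.26), and Cdk1 at 251 and 149.6 CPM in null BLPs, against 87.1 and 126 CPM in control BLPs (0.91 ± 0.74).

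Hjurp (chr1:88262471-88277633) had the smallest p of the members in BLPs. It stood at 423 and 399 CPM in null BLPs, against 250.2 and 134 CPM in control BLPs (1.10 ± 0.29, edgeR adjusted p = 0.466, DESeq2 adjusted p = 0.0224). The null mice agreed closely, and the gap to the controls was larger than the spread within either genotype. Kif23 (chr9:61915905-61946774), a kinesin that bundles the central spindle before cytokinesis, stood at 157 and 87.9 CPM in null BLPs, against 57.6 and 33.7 CPM in control BLPs (1.43 ± 0.43, edgeR adjusted p = 0.506, DESeq2 adjusted p = 0.0343). DESeq2 also called Anln and Tpx2 in BLPs (adjusted p = 0.0407 and 0.0451). Mki67 stood at 440 and 431 CPM in null BLPs, against 256 and 79.8 CPM in control BLPs (1.37 ± 0.67), and Top2a at 682 and 445 CPM in null BLPs, against 349 and 233 CPM in control BLPs (0.95 ± 0.61).

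By role, the groups in null BLPs had medians between 1.16 for the pair Mki67 and Top2a and 2.18 for the cyclins and Cdk1. Ube2c, the ubiquitin-conjugating enzyme of the anaphase-promoting complex, stood at 332 and 77.2 CPM in null BLPs, against 32.3 and 40.4 CPM in control BLPs. Plk1, the polo-like kinase, stood at 65.1 and 39.3 CPM in null BLPs, against 12.8 and 7.42 CPM in control BLPs. For both genes every null library was above every control library, although the null mice differed widely for Ube2c.

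The steps between populations use the same libraries as the genotype comparisons and are therefore not independent of them. From LMPP to ALP in null mice, 17 of 39 members were higher in ALPs, with a median of −0.22, where 50.2% of all genes were higher. By edgeR 0 members passed in that null step, where 0.211% of genes did, and 1 had an unadjusted p under 0.05, higher, where 5.4% of all genes were higher and 3.38% lower at that level. From LMPP to ALP in control mice, all 39 were higher in ALPs, with a median of 2.24, where 49.4% of all genes were higher. In that control step 21 members had an unadjusted p under 0.05, all higher, where 4.94% of all genes were higher and 3.82% lower at that level. The smallest edgeR adjusted p of any member in the study was there, 0.0619 for Ect2, so none passed, while 0.271% of genes did. DESeq2 called 11 members in the control step, against 5.23% of genes, and 0 in the null step, against 5.27%.

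Ect2 stood at 88.9 and 47.0 CPM in control ALPs, against 9.37 and 16.5 CPM in control LMPPs (log2 fold change 2.39 ± 0.39). Kif2c stood at 35.6 and 15.9 CPM in control ALPs, against 3.07 and 2.34 CPM in control LMPPs (3.25 ± 0.63, edgeR adjusted p = 0.120). For both genes the populations did not overlap in CPM. The same held in control mice for Mki67, at 253 and 178 CPM in ALPs against 44.2 and 39.7 CPM in LMPPs. For Kif2c, the highest cell held 36.2% and 70.9% of the reads in control ALPs, and 62.3% and 98.8% in control LMPPs. In 1 thinning draw a Kif2c read was found in 12.2% and 5% of control ALPs, against 8.51% and 2.13% of control LMPPs, with overlap. Averaged over all possible thinning draws, the shares were 13.7% and 8.03% of control ALPs, against 6.06% and 2.29% of control LMPPs, without overlap. In null mice the members with the smallest p were Hjurp, at 232 and 226 CPM in ALPs against 162 and 115 CPM in LMPPs (0.72 ± 0.29, edgeR adjusted p = 0.533), and Tpx2, at 59.3 and 30.6 CPM in ALPs against 71.4 and 68.6 CPM in LMPPs (−0.64 ± 0.46, edgeR adjusted p = 0.773).

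From ALP to BLP in null mice, 38 of 39 members were higher in BLPs, with a median of 1.11, where 49.1% of all genes were higher. The kinesin Kif20a was the exception at −0.21. From ALP to BLP in control mice, 1 of 39 was higher in BLPs, Ect2 at 0.20, with a median of −1.27, where 49.1% of all genes were higher. Without mouse 18218 the control median was −0.69 with 12 members higher, and with cells thinned to equal counts −0.56 with 6 higher. No member passed the edgeR test in either step (0% and 0.00502% of genes called), and 6 members in each had an unadjusted p under 0.05. In null mice all 6 were higher, where 2.54% of all genes were higher and 3.86% lower at that level, and in control mice all 6 were lower, where 4.04% were lower and 3.46% higher. DESeq2 called Ect2 in the null step (adjusted p = 0.00231), against 2.6% of genes, and 0 members in the control step, against 3.38%. Ect2 stood at 93.1 and 91.3 CPM in null BLPs, against 28.8 and 32.2 CPM in null ALPs, with the mice of each population close together and the populations far apart (1.60 ± 0.38, edgeR adjusted p = 0.665). Hjurp stood at 423 and 399 CPM in null BLPs, against 232 and 226 CPM in null ALPs (0.85 ± 0.29, edgeR adjusted p = 0.755). In control mice Tpx2 stood at 31.3 and 38.1 CPM in BLPs, against 124 and 59.4 CPM in ALPs (−1.40 ± 0.47, edgeR adjusted p = 0.575), and Ccnb2 at 40.6 and 9.95 CPM in BLPs, against 232 and 47.6 CPM in ALPs (−2.47 ± 0.90, edgeR adjusted p = 0.623). In both control pairs the BLP libraries lay below the ALP libraries without overlap.

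Whether the genotype difference itself varied between populations was tested in the same fit. The difference in ALPs minus that in LMPPs was negative for all 39 members (median −2.35), where 51.1% of all genes were positive. The difference in BLPs minus that in ALPs was positive for all 39 (median 2.38), where 48.9% of all genes were positive. The difference in BLPs minus that in LMPPs was positive for 20 of 39 (median 0.07), where 50.2% of all genes were positive. These differences share libraries, and edgeR called 0 members in each, where 0% of all genes were called. At an unadjusted p under 0.05 stood 10 members in ALPs minus LMPPs, all negative, where 2.26% of all genes were negative and 2.99% positive at that level. In BLPs minus ALPs 16 members stood there, all positive, where 3.07% of all genes were positive and 3.31% negative. In BLPs minus LMPPs 1 member stood there, positive, where 3.62% of all genes were positive and 3.16% negative. DESeq2 called Tpx2, Ect2 and Kif2c in ALPs minus LMPPs, against 1.3% of genes, Tpx2 in BLPs minus ALPs, against 1.95%, and 0 members in BLPs minus LMPPs, against 2.3%. Tpx2 had −3.05 ± 0.66 and Ect2 −2.38 ± 0.53 in ALPs minus LMPPs (edgeR adjusted p = 0.899 each), and Tpx2 had 2.50 ± 0.66 and Cenpe 3.01 ± 0.95 in BLPs minus ALPs (edgeR adjusted p = 0.776 each). In BLPs minus LMPPs the smallest p-values belonged to Hjurp, at 1.05 ± 0.41, and Cenpe, at 1.86 ± 0.93 (edgeR adjusted p = 0.722 and 0.732).

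To see how the transcripts were spread over cells, each cell was scored by how many of the 39 members had a read at 50000 counts. Over all 561 cells the score ran from 0 to 39 with a median of 5. No member was read in 8 cells, 1 to 4 members in 222, 5 to 9 in 174, 10 to 14 in 43, 15 to 24 in 52 and 25 or more in 62. A cell with 10 or more members read is called high-scoring here, and 157 cells (28.0%) were so. The score is a range and not a cell type, and 64 cells lay at 8 to 11, near the limit. High-scoring cells held 83.5% of all reads of the members, and the members summed to a median of 5140 CPM in them and 488 CPM in the rest.

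**Figure D3:**
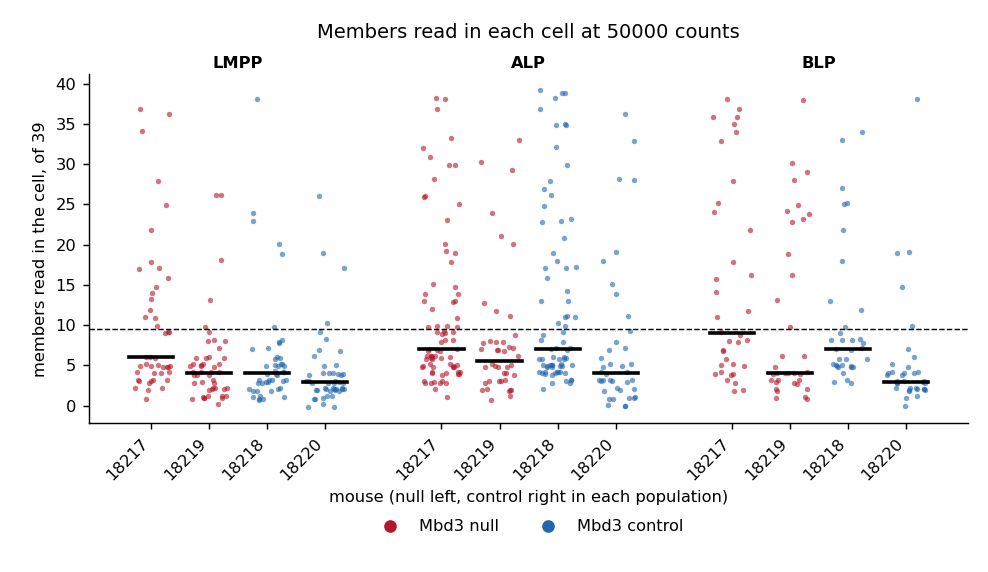
Number of the 39 members read in each cell at 50000 counts, with 1 point per cell, null mice to the left of control mice in each population and a dashed line between 9 and 10. Most cells lie under the line in every library, with a spread of cells up to 39 above it.

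In LMPPs, high-scoring cells made up 37.8% (95% Wilson interval 25.1 to 52.4) and 10.6% (4.63 to 22.6) of cells in null mice 18217 and 18219, against 12.8% (5.98 to 25.2) and 8.51% (3.36 to 19.9) in control mice 18218 and 18220. Null mouse 18217 stood apart, and null mouse 18219 lay between the controls. In ALPs they made up 38.0% (28.1 to 49.0) and 21.4% (11.7 to 35.9) of null cells, against 43.2% (32.6 to 54.6) and 22.5% (12.3 to 37.5) of control cells, so that the genotypes overlapped. In BLPs they made up 47.2% (32.0 to 63.0) and 37.1% (23.2 to 53.7) of null cells, against 29.4% (16.8 to 46.2) and 14.3% (6.26 to 29.4) of control cells. Both null BLP libraries were above both controls, but the intervals of neighbouring mice overlapped. With 2 mice against 2, a two-sided exact permutation test cannot go below p = 0.33, so these shares stand as a description, and the intervals cover counting error only. Averaged over all possible thinning draws rather than taken from 1 draw, the shares in BLPs were 47.9% and 36.6% in null mice, against 30.0% and 13.0% in control mice. With a limit of 15 members they were 38.9% and 31.4%, against 20.6% and 11.4%, without overlap. At 200000 counts they were 80.6% and 40.0%, against 61.8% and 17.1%, with overlap. With a limit of 5 members they were 77.8% and 45.7%, against 88.2% and 25.7%, with overlap. In LMPPs the limit of 5 gave 68.9% and 44.7% in null mice, against 42.6% and 23.4% in control mice, without overlap.

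The level in high-scoring cells followed another order. Their members summed to a mean of 5734 and 7303 CPM per cell in null LMPPs, against 5672 and 5305 CPM in control LMPPs, from 17 and 5 against 6 and 4 cells. In ALPs the means were 6069 and 5556 CPM in null mice, against 8289 and 7512 CPM in control mice, both null mice below both controls. In BLPs they were 10443 and 9329 CPM in null mice, against 6543 and 7889 CPM in control mice, both null mice above both controls. In the remaining cells the means were 482 to 822 CPM in null libraries and 491 to 974 CPM in control libraries, and the genotypes overlapped in LMPPs and BLPs. In ALPs they were 722 and 660 CPM in null mice, against 545 and 520 CPM in control mice, without overlap.

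**Figure D4:**
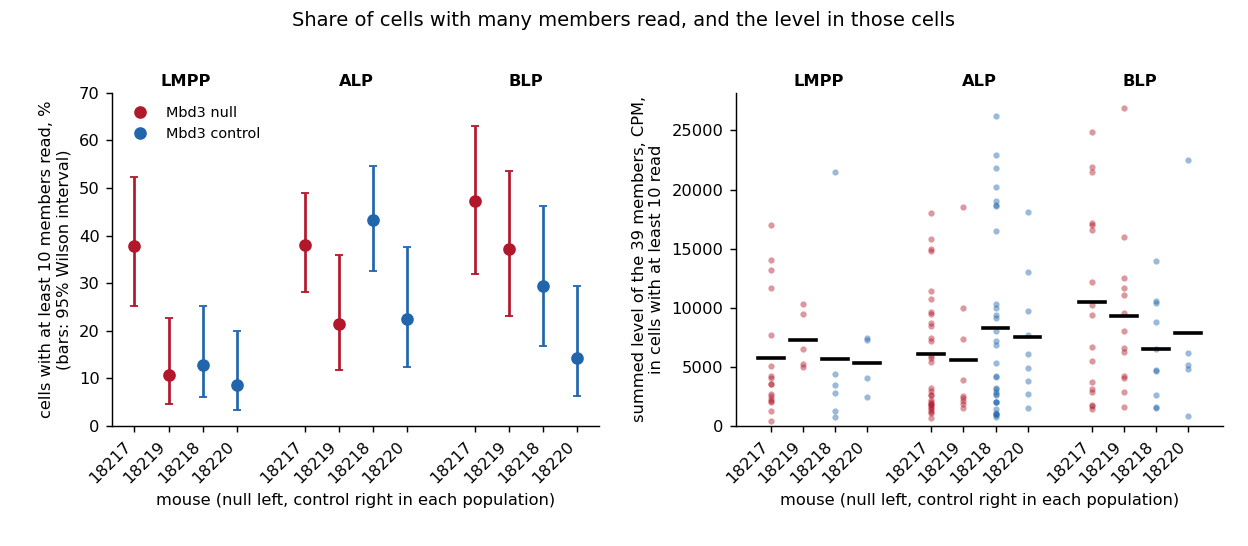
Left, the percentage of cells with at least 10 of the 39 members read, with 95% Wilson intervals, and right, the summed CPM of the members in each such cell with a bar at the mean, null mice to the left of control mice in each population. Shares in BLPs are 47.2% and 37.1% in null mice and 29.4% and 14.3% in control mice, and among LMPPs null mouse 18217 (37.8%) stands above the other 3 mice.

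The mean level per cell can be divided into a part from the share of high-scoring cells and parts from the level in high-scoring and other cells, which add up to the whole difference between genotypes. Each division was made within the pairs of neighbouring columns (18217 with 18218, 18219 with 18220) and then averaged. The parts depend on that pairing, and the labels do not say whether the pairs are batches. In LMPPs the members averaged 1869 ± 845 CPM per null cell and 1152 ± 0.62 CPM per control cell (SD, n = 2 mice each). Of the difference of 717 CPM, 712 CPM (99.4%) came from the share, 104 CPM from the level in high-scoring cells and −99.2 CPM from the other cells. The size of the difference rested on null mouse 18217. Between 18217 and 18218 it was 1314 CPM, with 99.3% from the share and 1.20% from the level in high-scoring cells. Between 18219 and 18220 it was 120 CPM, with 100.2% from the share, while the level in high-scoring cells gave 191 CPM and that in the other cells −192 CPM. Left out in turn, the mice gave a share difference of 0 to 27.1 points, with 0 without mouse 18217.

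In BLPs the members averaged 4575 ± 1118 CPM per null cell and 2103 ± 719 CPM per control cell. Of the difference of 2472 CPM, 1600 CPM (64.7%) came from the share of high-scoring cells and 932 CPM (37.7%) from the level in them. Between mice 18217 and 18218 the share gave 49.1% of the difference and between 18219 and 18220 84.4%. In ALPs they averaged 2231 ± 738 CPM per null cell and 2993 ± 1273 CPM per control cell. Of the difference of −763 CPM, −204 CPM (26.8%) came from the share and −666 CPM (87.3%) from the level in high-scoring cells. The division depended on the limit. With high-scoring set at 5 members the share gave 86.3% of the difference in LMPPs, 14.7% in BLPs and a part of the opposite sign in ALPs (281 CPM), and at 15 members it gave 59.9%, 73.1% and 63.8%.

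The share of cells in which each member was read at 50000 counts was also tested, with limma over 11933 genes. The median difference of null minus control over the 39 members was 6.76 points in LMPPs, −1.10 points in ALPs and 13.6 points in BLPs. Positive differences were found for 37, 16 and 38 of 39 members, against 42%, 46.9% and 48% of all genes. No member passed an adjusted p of 0.05 in any population, where limma called 0.00838%, 0% and 0.0168% of all genes, and 1, 0 and 10 members had an unadjusted p under 0.05, where 5.4%, 4.2% and 7.0% of all genes did. Both null mice were above both controls in share for 8 members in LMPPs (9.16% of all genes) and 23 in BLPs (13.7%), and below them for 2 in ALPs (18%). In the 1 draw tested, Ccnb2 had the largest difference in BLPs, at 24.9 ± 7.3 points (limma adjusted p = 0.608). It was read in 38.9% and 34.3% of null cells, against 17.6% and 5.71% of control cells. Averaged over all draws, Ccnb2 was read in 35.6% and 26.6% of null BLPs, against 22.6% and 8.59% of control BLPs. The largest averaged difference was that of Nusap1, at 43.8% and 30.5% of null BLPs, against 26.9% and 7.17% of control BLPs. Tpx2 was read in 38.9% and 28.6% of null BLPs, against 17.6% and 8.57% of control BLPs (20.6 ± 6.6 points, adjusted p = 0.610). For Ccnb2 and Tpx2 the lower null mouse stood above the higher control, in the 1 draw and averaged over draws.

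The share with an Mki67 read overlapped between genotypes in LMPPs in 1 draw, at 46.7% and 27.7% of null cells against 29.8% and 19.1% of control cells. Averaged over all draws it was 44.8% and 27.8% of null LMPPs, against 20.3% and 20.9% of control LMPPs, without overlap. In BLPs the share in 1 draw was 58.3% and 42.9% of null cells, against 38.2% and 25.7% of control cells, without overlap. The average over draws was 54.1% and 41.4% of null BLPs, against 44.2% and 22.9% of control BLPs, with overlap, so that for Mki67 the separation of genotypes depended on the draw in both populations.

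Single cells carried much of each member's reads in some libraries. The median over members of the share of reads from the gene's highest cell was 30.8% and 55.5% in null LMPPs, against 51.8% and 46.6% in control LMPPs. It was 17.3% and 38.7% in null ALPs, against 19.9% and 44.3% in control ALPs, and 27.0% and 31.1% in null BLPs, against 29.9% and 62.8% in control BLPs. Most reads came from 1 cell for 30 of 39 members in the BLPs of control mouse 18220, for 25 in the LMPPs of null mouse 18219 and for 0 in the ALPs of mice 18217 and 18218 and the BLPs of mouse 18217. The Nek2 reads of those control BLPs came from 1 cell by 99.2%, and so the CPM of a low member can rest on a single cell. The 10% of cells with the most held, by library, 36.2% to 71.6% of the members' reads. With the highest cell of each gene removed from each library, the median log2 fold change over the members was 1.85 in LMPPs, −0.75 in ALPs and 2.00 in BLPs.

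The members differed in how closely they marked high-scoring cells. Top2a was read in 96.2% of high-scoring cells and 41.6% of the others, Hjurp in 91.1% and 64.1%, and Cdk1 in 85.4% and 20.0%. Bub1, the checkpoint kinase at the kinetochore, was read in 51.0% of high-scoring cells and 0.99% of the others, and Cdc25c in 24.8% and 0.25%. Because these genes make up the score, the differences are descriptions of how broadly each was read. In the cells outside the high-scoring range Hjurp was the most widely read member, followed by Top2a, Cenpa (34.2%) and Kif23 (30.7%). Averaged over the 12 libraries, the correlation across cells between a gene's log2(count + 1) and the score was highest for Ccna2 (r = 0.88), Birc5 (0.87) and Mki67 (0.84) and was 0.38 for Hjurp and 0.37 for Kif23. Cells of a library share its depth and preparation, each member is part of the score, and no test was made.

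**Figure D5:**
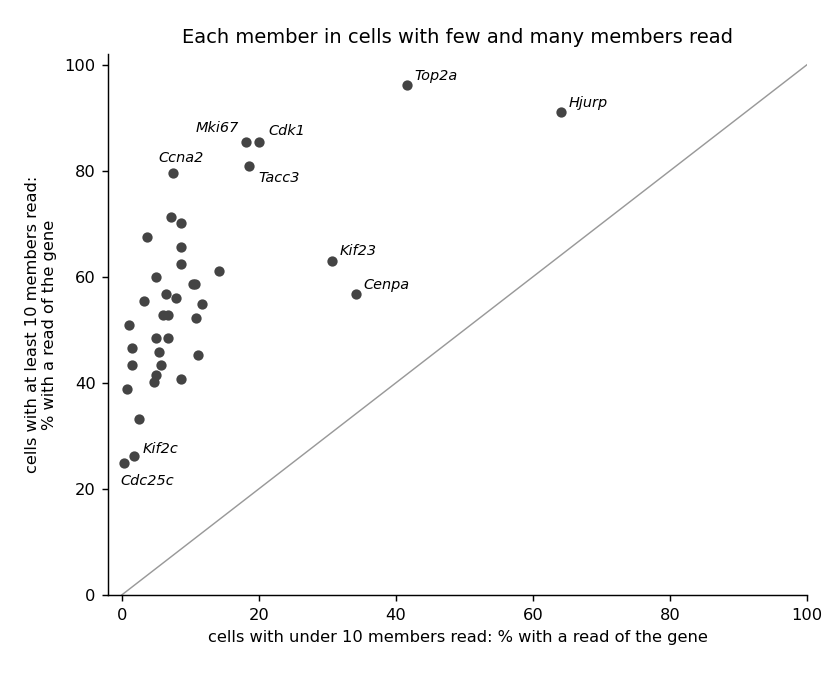
Percentage of the 157 high-scoring cells (vertical) and of the remaining cells (horizontal) in which each of the 39 members was read at 50000 counts, with 1 point per gene and a line of equality. All points lie above the line, with Hjurp, Top2a, Cenpa and Kif23 farthest to the right.

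The 10 genes outside the list with the highest mean correlation to the score over the 12 libraries were Neil3 (0.73), Pbk (0.73), Pimreg (0.72), Ckap2l (0.71), Lockd (0.71), Pclaf (0.70), Knl1 (0.70), Hmgb2 (0.69), Racgap1 (0.69) and Kif22 (0.69). Pclaf encodes a PCNA-binding protein, Knl1 a kinetochore scaffold, Racgap1 a partner of Ect2 and Kif23 in the central spindle, and Kif22 a chromosome-borne kinesin. Of 11933 genes ranked, 20 members stood among the first 39, and the last member, Kif23, stood at rank 181.

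High-scoring cells differed from the others in further measures. The median number of the 27 listed S phase genes read was higher in high-scoring cells in 11 of 12 libraries, for example 22 against 14 in the BLPs of null mouse 18217 and 24 against 8 in the LMPPs of control mouse 18218. In the LMPPs of null mouse 18219 it was 9 in both. Median gene counts per spike-in count were higher in high-scoring cells in 11 of 12 libraries, median depth in 9 of 12, and median detected genes in 12 of 12. The part of cell size and depth in the score was not tested beyond the thinning to equal counts.

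Of 77 other genes of the pathway (regulators, checkpoint partners, anaphase-promoting complex subunits and further spindle genes), 61 were higher in null LMPPs (median 0.41), 24 in null ALPs (−0.18) and 63 in null BLPs (0.54), beside the 48.1%, 49.7% and 48.5% of all genes given above. EdgeR called none of the 77 in any population, where it called 0%, 0.00502% and 0.01% of all genes. At an unadjusted p under 0.05 stood 6, 3 and 12 of the 77, where 6.76%, 4.50% and 8.83% of all genes did. Foxm1, a transcription factor of G2 genes, stood at 6.91 and 24.4 CPM in null LMPPs, against 4.53 and 0.57 CPM in control LMPPs (2.62 ± 1.44). In ALPs it stood at 28.5 and 1.21 CPM in null mice, against 30.5 and 21.5 CPM in control mice (−0.80 ± 1.37), and in BLPs at 103 and 40.8 CPM in null mice, against 4.25 and 11.4 CPM in control mice (3.20 ± 1.48). The genotypes were apart in LMPPs and BLPs and overlapped in ALPs. Mybl2, which encodes B-Myb, had log2 fold changes of 0.69 ± 1.54, 0.17 ± 1.54 and 0.42 ± 1.54 in LMPPs, ALPs and BLPs.

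The smallest p-values among these genes belonged in LMPPs to E2f5, a repressive E2F factor (−1.67 ± 0.59), Cdc27 of the anaphase-promoting complex (0.71 ± 0.26) and Hmgb2, a chromatin protein (0.66 ± 0.25), with edgeR adjusted p-values of 0.715, 0.724 and 0.730. In ALPs they belonged to Mis18a, which licenses centromeres (−0.73 ± 0.30), E2f5 (1.39 ± 0.59) and Fzr1, the G1 activator of the anaphase-promoting complex (−1.04 ± 0.45), with edgeR adjusted p = 1 for each. In BLPs they belonged to Lin54, the DNA-binding subunit of MuvB (2.61 ± 0.69), Knstrn of the kinetochore (2.70 ± 0.82) and Cks2, a Cdk1 subunit (1.49 ± 0.47), with edgeR adjusted p-values of 0.462, 0.511 and 0.523. Lin54 stood at 19.3 and 41.8 CPM in null BLPs, against 4.88 and 5.14 CPM in control BLPs, with no overlap.

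Of the 27 S phase genes, 22 were higher in null LMPPs (median 0.39), 21 in null ALPs (0.22) and 18 in null BLPs (0.10). Of all genes, 48.1%, 49.7% and 48.5% were higher. EdgeR called none of the 27, where it called 0%, 0.00502% and 0.01% of all genes. At an unadjusted p under 0.05 stood 0, 0 and 1 of them, where 6.76%, 4.50% and 8.83% of all genes did. The helicase subunit Mcm6 stood at 546 and 510 CPM in null BLPs, against 849 and 854 CPM in control BLPs, with close replicates and no overlap (−0.69 ± 0.24, edgeR adjusted p = 0.544). No test compared the S phase list with the members.

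Markers of other cell types were followed in the same libraries. The 7 myeloid markers summed to 1289 and 1663 CPM in null LMPPs, against 761 and 787 CPM in control LMPPs, and to 1004 and 855 CPM in null ALPs, against 451 and 253 CPM in control ALPs. In BLPs they summed to 402 and 467 CPM in null mice, against 180 and 77.9 CPM in control mice, so that null libraries were higher in each population. Of these markers Ms4a3 was at 0 in 10 of 12 libraries and Elane at or under 1.60 CPM in all, and Mpo made up most of the sum in null mice. Ctsg was higher in null LMPPs, at 159 ± 59.7 CPM, against 19.3 ± 4.80 CPM in control LMPPs (mean ± SD, n = 2 mice each). The means of Prtn3 and Csf3r were lower in null LMPPs, but the genotypes overlapped for both. Prtn3 stood at 51.1 ± 16.4 CPM in null and 162 ± 143 CPM in control LMPPs, and Csf3r at 133 ± 10.4 and 147 ± 49.4 CPM. The 8 pro-B markers summed to 426 and 748 CPM in null ALPs, against 157 and 93.5 CPM in control ALPs, and to 2083 and 1476 CPM in null BLPs, against 1128 and 1510 CPM in control BLPs, where the genotypes overlapped. In LMPPs they summed to 128 and 163 CPM in null mice, against 112 and 66.2 CPM in control mice. Most of that was Cd79b, at a mean of 136 CPM in null and 82.8 CPM in control LMPPs. The 6 plasmacytoid dendritic markers summed to 382 and 551 CPM in null ALPs, against 1075 and 1826 CPM in control ALPs, and the genotypes overlapped in LMPPs and BLPs. Irf8 was the largest of them in ALPs, at a mean of 243 CPM in null and 1046 CPM in control mice. The 7 T and NK markers summed to 341 to 432 CPM in null libraries and 288 to 455 CPM in control libraries. Nkg7 made up most of that, with group means of 337 to 407 CPM in null and 263 to 372 CPM in control mice. The 6 mature B and plasma markers summed to 39.0 to 204 CPM in null libraries and 107 to 325 CPM in control libraries. The 7 erythroid and megakaryocyte markers summed to 1.58 to 37.0 CPM in null libraries and 0.82 to 21.3 CPM in control libraries. In high-scoring and other cells, averaged over libraries, the number of markers read was 1.68 and 1.37 of 7 for the myeloid list, 1.74 and 2.04 of 8 for the pro-B list, 0.09 and 0.12 of 7 for the erythroid and megakaryocyte list, 2.18 and 2.06 of 6 for the plasmacytoid dendritic list, and 4.42 and 4.43 of the 6 gate genes. The part of the myeloid, pro-B and plasmacytoid dendritic differences in the members' levels was not tested.

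Some counts may include reads of other genes. Exons of Ccna2, Cdc25c, Cdc20, Ube2c, Nek2, Cdca8, Kif20a, Kif4, Nusap1 and Tacc3 overlap a gene on the other strand, and Top2a overlaps a small RNA gene on its own strand. Ccnb1, Ccnb2 and Kif4 have a named pseudogene copy, so their counts are uncertain where reads were shared. The sources used here give neither the strand setting nor the annotation release.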

How the data were processed

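Single cells were sorted 1 per well and made into full-length libraries, and no doublet caller was run. The values, as deposited, are raw read counts for each gene in each cell, without molecular identifiers, from GSNAP alignments to mm10 counted with HTSeq 0.5.3p3, per the submitters' processing notes. Genes took 43.2% of reads, spike-ins 6.13%, reads with no feature 11.6%, ambiguous reads 6.08% and unaligned reads 33.0%, and only gene rows entered library sizes. Cells were kept with at least 50000 nuclear gene counts and 1000 genes, at most 20% mitochondrial and 50% spike-in counts.

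Counts of kept cells were summed per mouse and population into 12 libraries and tested over 19903 genes with edgeR 4.0.16 (quasi-likelihood, R 4.3.3, Benjamini-Hochberg adjustment over all genes, threshold 0.05). All libraries shared 1 estimate of the spread, with 6 residual degrees of freedom and a coefficient of variation of 86.9%. DESeq2 1.42.0 and limma-voom (limma 3.58.1) were alternatives. Shares of cells with a read at 50000 counts were tested with limma. The approximate SE is the fold change over the root of its F statistic. The scripts were checked on simulated data. Replicates are separate mice, 2 per genotype. Named genes were the members with the smallest p in each comparison (4 per genotype comparison, 2 per step) with Mki67, Top2a, Ccnb1 and Cdk1, and for other pathway genes the 3 smallest with Foxm1 and Mybl2. Further genes were chosen after their values were seen. Members and lists were chosen with earlier results of these data known. The 3 populations of a mouse pair libraries across the steps; deviations of libraries of the same mouse correlated at 0.0341 to 0.0694 over all tested genes and −0.2436 to 0.4324 over the members (12 pairs). Wilson intervals (95%) cover counting error only.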

Additional observations from a re-analysis of the deposited data

How the results depend on the processing

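With 2 mice per genotype and a wide spread between them, edgeR called 0 members in every comparison, and low members rested on few cells. DESeq2 called 4 members in LMPPs, 6 in BLPs, 11 in the control step from LMPP to ALP, 1 in the null step from ALP to BLP, 3 in the effect in ALPs minus LMPPs and 1 in BLPs minus ALPs. In the control step from LMPP to ALP, 6 members were called with no filter on low counts, where 115 genes were called higher and 64 lower of 34764, and 2 with cells thinned to equal counts, where 100 were called higher and 51 lower of 13132. The cause of these differences was not tested.

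The median of the null step from LMPP to ALP changed sign to 0.065 with limma-voom, 0.21 with thinned cells, 0.11 without each gene's highest cell and 0.21 when the thinly filled ALP libraries (mice 18219 and 18220) were left out. The median effect in BLPs minus LMPPs was −0.19 with limma-voom. Without thinning, the median differences in share of cells were −0.0236 points in LMPPs, 1.41 in ALPs and 1.26 in BLPs, and the control cells were deeper. The share of high-scoring cells differed in ALPs by 9.69 points with a limit of 5 members and 8.35 points at 200000 counts, and in BLPs by 4.77 points with a limit of 5, where the share part in ALPs was 281 CPM.

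Leaving out each mouse in turn gave medians of 0.47 to 2.31 in LMPPs, −1.35 to 0.10 in ALPs, 1.33 to 2.00 in BLPs, −1.58 to −0.69 in the control step from ALP to BLP, −0.24 to 0.088 in the null step from LMPP to ALP and −0.32 to 0.61 for BLPs minus LMPPs. Median share differences were 1.06 to 11.6 points in LMPPs, −8.59 to 5.83 in ALPs and 8.11 to 19.4 in BLPs, and high-scoring shares differed by 0 to 27.1, −13.5 to 7.20 and 12.8 to 27.9 points. In LMPPs Top2a ranged from −0.99 to 1.29 and Cdk1 from −0.79 to 1.73, both negative without mouse 18217, and in ALPs Ccnb1 from −2.58 to 1.12 and Cdk1 from −1.12 to 0.45, both positive without mouse 18218.

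With the mouse as a replicate block, the pairing gave medians of −0.0005 in the null and 2.24 in the control step from LMPP to ALP, 1.17 and −1.05 in the null and control steps from ALP to BLP, and −2.11, 2.23 and 0.02 for the effects in ALPs minus LMPPs, BLPs minus ALPs and BLPs minus LMPPs. With the column layout as a block the genotype medians were 1.67 in LMPPs, −0.60 in ALPs and 1.57 in BLPs. The column-layout block, the within-pair values, the limits of 5 and 15 members for the split into share and level (not for the share itself), the omission of those ALP libraries and the average over draws were chosen after seeing the data. Under the replicate block edgeR still called 0 members, while of all genes it called 17 higher and 5 lower in the null step from LMPP to ALP (31 and 11 without the block) and 21 higher and 11 lower in the control step (35 and 19 without it).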
